A study of Mus musculus with 4 samples.

Results

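Genes of macrophages and other white blood cells were followed in 4 RNA sequencing libraries of primary MEFs, that is, fibroblasts cultured directly from mouse embryos and not yet an immortal line. A list of 39 such genes was taken, and 28 of them had at least 1 FPKM (fragments per kilobase of exon, scaled to 1e+06 fragments per library) in at least 1 library, among 12817 genes that did so out of 55573. For 24 h before collection, 100 nM SAG, which activates the Hedgehog pathway through Smoothened, was present in all 4 cultures. Untransfected cells came as WT (wild type) and as Dyrk2-KO, which lack the kinase gene Dyrk2. Wild-type cells were also transfected, either with a control siRNA (siNeg) or with one that targets Dyrk2 (siDyrk2). With a single library for each of these, no difference below has a replicate check and none was tested. The labels do not give the number, age or sex of the embryos, or whether knockout and wild-type embryos were littermates, and cultures without SAG were not analysed here.

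Macrophages are phagocytes that arise from yolk sac and fetal liver precursors and settle in embryonic tissues, where they clear dying cells. Their identity depends on the transcription factor PU.1, encoded by Spi1, and on signals through the receptor CSF1R, whose ligands CSF1 and IL-34 are made by fibroblasts and other stromal cells. Fibroblast cultures are usually prepared from minced embryos without sorting, and macrophages can be carried along. The list holds blood lineage regulators, complement C1q, signalling adaptors and receptors, scavenger receptors, lysosomal and oxidase genes, and adhesion genes.

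Estimated depth was 20 to 23.9 in units of 1e+06 fragments per library, and 11939 to 12106 genes reached 1 FPKM. Dyrk2 was at 6.59 FPKM in WT, 0.57 in Dyrk2-KO, 7.06 with siNeg and 0.81 with siDyrk2, the order the labels call for. The libraries had the marker profile of fibroblasts: all 12 fibroblast genes of a marker list were above 1 FPKM in every library, with Col1a1 at 2377 to 3276 FPKM. The knockout library differed from the others in Y-linked transcripts. Eif2s3y was at 4.58 FPKM there and at 0 in the other 3 libraries, and Xist was at 26.37 FPKM there against 27.48 to 37.05 in the others. The 15 measured genes of a G2/M cell division list were all lower in Dyrk2-KO than in WT (55.6% of all genes), with a median log2 ratio of -1.16. They were all higher with siNeg than in WT (48.3% of all genes), with a median of 0.50. What these differences contribute to the values below was not tested.

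The macrophage and leukocyte genes were higher in Dyrk2-KO than in WT in 27 of 28 cases, with a median log2 ratio of (FPKM + 1) of 0.65. Of all 12817 genes 43.7% were higher and 55.6% lower in that comparison, and their median was -0.02. With siDyrk2 against siNeg 24 of 28 were higher and 4 lower (54.3% and 45% of all genes), with a smaller median of 0.24 beside 0.02 for all genes. With siNeg against WT, both with intact Dyrk2, 28 of 28 were higher and 0 lower (48.3% and 51% of all genes), with a median of 0.28 beside -0.01. The first and last of these comparisons share the WT library, in which 27 of 28 genes had their lowest value (15.8% of all genes). The remaining member, Cx3cr1, was lowest in Dyrk2-KO, as were 33% of all genes. Cd52, Msr1, Aif1 and Cx3cr1 were under 1 FPKM in WT and were kept through other libraries, so WT could not hold their highest value. Taken against siNeg in place of WT, the knockout had 25 of 28 genes higher and a median of 0.31. The share and median of all genes for that pair are not given here, so this count has nothing to be set beside. In bulk RNA, more cells of a type and more RNA per cell cannot be told apart.

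Few differences were large. By the rule of at least 2-fold on FPKM + 1, 2 of 28 members were higher in Dyrk2-KO, where 0.57% of all genes were, and 0 were lower, where 1.21% of all genes were. In each of the other comparisons 0 members were at least 2-fold higher (0.749% of all genes with siDyrk2 and 0.367% with siNeg) and 0 were at least 2-fold lower (0.796% and 0.562%). A 95% counting interval of the ratio, which covers only the error of counting fragments, lay above 1 for 24 of 28 members in Dyrk2-KO against 19.1% of all genes. It did so for 19 of 28 with siDyrk2 (28.3%) and for 19 of 28 with siNeg against WT (22.9%). It lay below 1 for 1 member, Cx3cr1 with siDyrk2, where 23.1% of all genes had such an interval. In the knockout and siNeg-against-WT comparisons 0 members did, beside 26.2% and 23.6% of all genes.

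**Figure D1:**
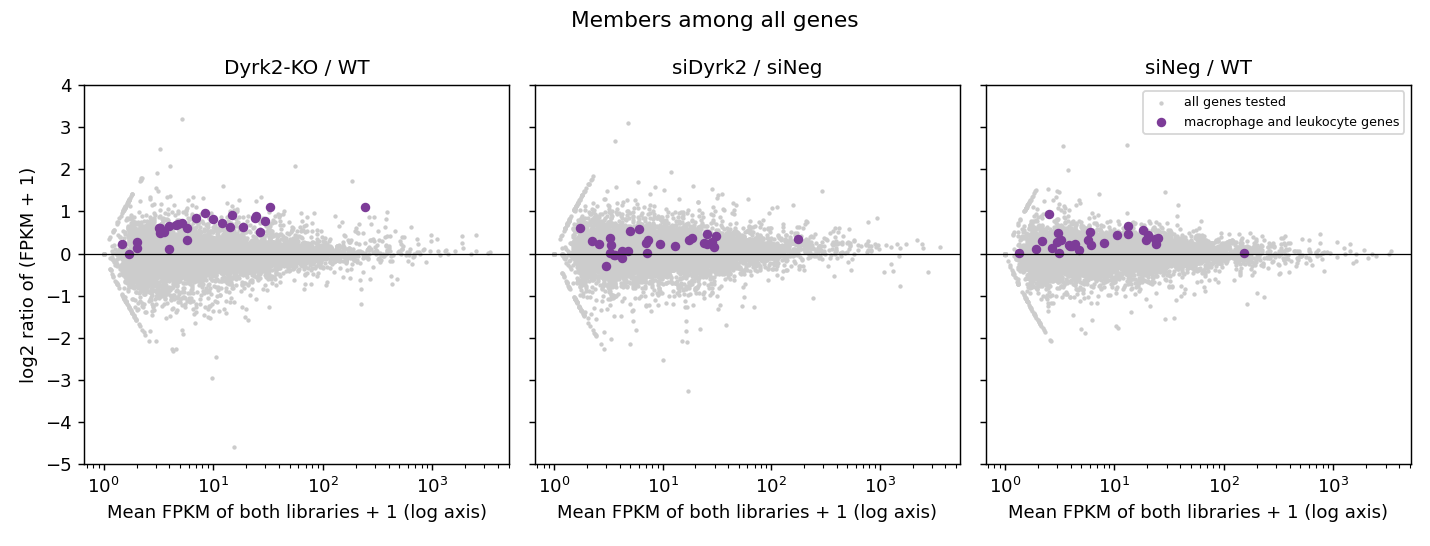
Log2 ratio of (FPKM + 1) against the mean FPKM of both libraries plus 1 (log axis) in the 3 comparisons, with grey points for the 12817 genes tested and purple points for the 28 macrophage and leukocyte genes. The purple points lie above 0 in 27, 24 and 28 of 28 cases from left to right, inside the cloud of other genes for most.

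The list's fragments made up 0.063% of the WT library (95% Wilson interval 0.062 to 0.064), 0.119% of Dyrk2-KO (0.117 to 0.12), 0.0767% of siNeg (0.0755 to 0.0779) and 0.095% of siDyrk2 (0.0937 to 0.0963). The shares thus ran from WT over siNeg and siDyrk2 to Dyrk2-KO, with intervals that did not overlap. Such intervals cover only the error of counting fragments and say nothing of how cultures of the same group vary. Summed over all 39 genes the level was 335, 652, 397 and 493 FPKM in WT, Dyrk2-KO, siNeg and siDyrk2. Lyz2 alone gave 38.9 to 50.4% of that sum. Without it the sums were 183, 324, 242 and 297 FPKM, in the same order of libraries.

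In 23 of 28 members both libraries with lowered Dyrk2 stood above both with intact Dyrk2, a pattern looked for after the values had been seen. Of all genes 16.3% had it, and the opposite pattern was seen in 0 members and 16.6% of all genes. Some of the 23 differed by little: Csf1r had 6.09 FPKM under siNeg and 6.18 under siDyrk2, and its order there turned to -0.01 (log2) with trimmed-mean scaling. The 5 members without the pattern were Spi1, Cd52, Ncf1, Cd14 and Cx3cr1. The highest value lay in Dyrk2-KO for 17 members (25.1% of all genes), in siDyrk2 for 9 (31.7%), in siNeg for 2 (24.3%) and in WT for 0 (18.9%).

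**Figure D2:**
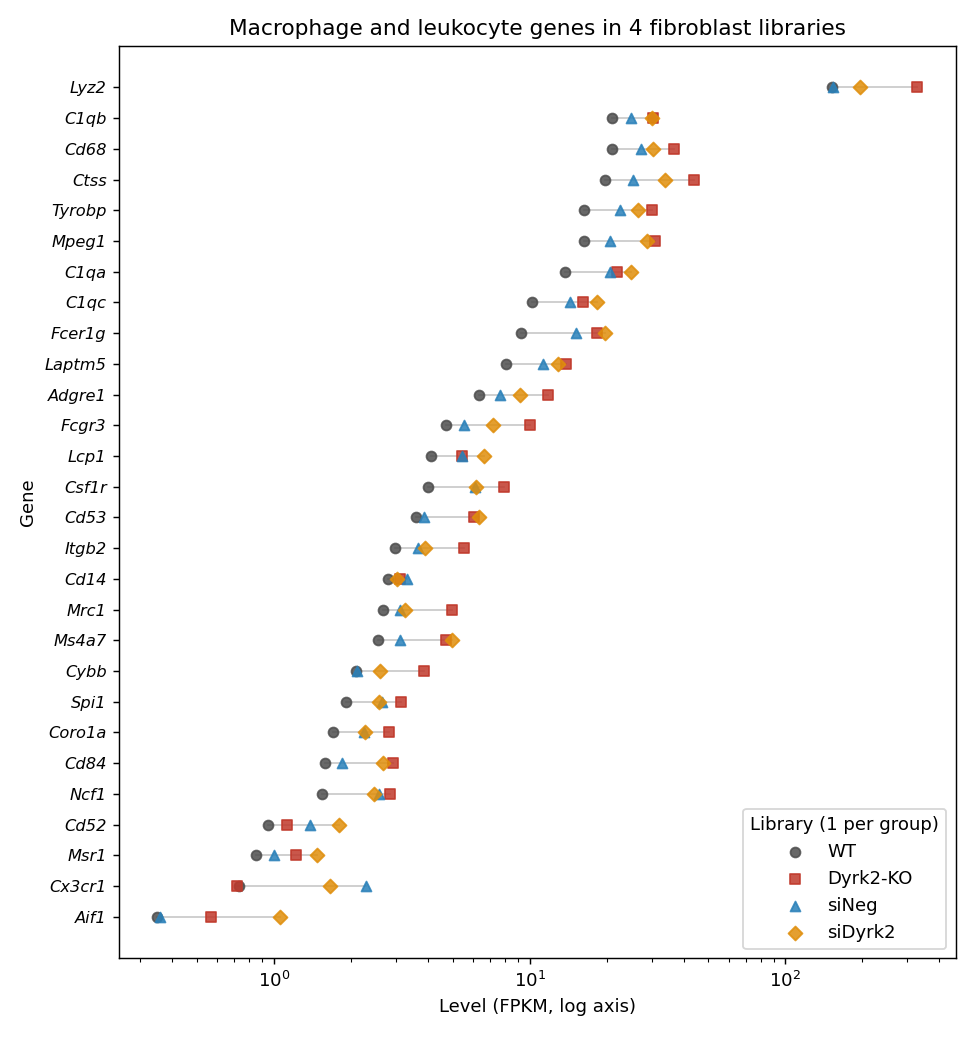
Level in FPKM (log axis) of each of the 28 genes in the 4 libraries, 1 point per library, joined by a line from the lowest to the highest. WT has the lowest point in 27 of 28 genes, the exception being Cx3cr1, and Lyz2 lies far to the right of all others.

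Among the blood lineage regulators, Csf1r, the receptor for CSF1, was at 4.00 FPKM in WT, 7.96 in Dyrk2-KO, 6.09 with siNeg and 6.18 with siDyrk2. Its knockout ratio was 1.99 (95% counting interval 1.79 to 2.21) and its ratio of siNeg to WT 1.52 (1.36 to 1.7), while siDyrk2 over siNeg gave 1.01 (0.914 to 1.12), a direction that turned with other scalings. WT was thus lowest and Dyrk2-KO highest, with both siRNA libraries between them. Spi1, which encodes PU.1, was lower in level, at 1.92, 3.14, 2.64 and 2.57 FPKM in WT, Dyrk2-KO, siNeg and siDyrk2. It shared this order of libraries apart from a slightly lower value with siDyrk2 than with siNeg, a ratio of 0.973 (0.771 to 1.24).

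Laptm5, a lysosomal membrane protein of blood cells, was at 8.05 FPKM in WT, 13.84 in Dyrk2-KO, 11.23 with siNeg and 12.86 with siDyrk2. Its ratios were 1.72 (1.56 to 1.89) for the knockout, 1.15 (1.04 to 1.26) for siDyrk2 and 1.4 (1.26 to 1.54) for siNeg against WT. Cd53, a tetraspanin of leukocytes, divided the libraries by Dyrk2, with 3.60 FPKM in WT and 3.88 with siNeg against 6.04 in Dyrk2-KO and 6.31 with siDyrk2. Its ratios were 1.68 (1.36 to 2.07) and 1.63 (1.31 to 2.03) for both ways of lowering Dyrk2, and 1.08 (0.848 to 1.37) between both controls. Lcp1, the actin-bundling protein L-plastin, which tumour and other cells also make, was at 4.13, 5.46, 5.44 and 6.64 FPKM in WT, Dyrk2-KO, siNeg and siDyrk2. Its knockout ratio was 1.32 (1.21 to 1.44), and only Cx3cr1, Cd14 and Cd52 had smaller ones.

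Coro1a, an actin regulator of leukocytes, was at 1.70, 2.81, 2.25 and 2.28 FPKM in WT, Dyrk2-KO, siNeg and siDyrk2, highest in the knockout. The order of both siRNA libraries turned with scaling for Coro1a, as for Csf1r. Cd52, a short surface glycoprotein, was at 0.95, 1.12, 1.39 and 1.80 FPKM in the same order, on 27 to 46 fragments. Its counting intervals included 1 in all 3 comparisons. Ptprc, the common leukocyte phosphatase CD45, did not reach 1 FPKM. It had 187 to 295 fragments in each library over an exonic length of 18313 bases, the longest of the list, which gave 0.45 FPKM in WT, 0.70 in Dyrk2-KO, 0.51 with siNeg and 0.75 with siDyrk2.

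To show what the start regions of these genes look like, they were searched for GAGGAAG, a form of the purine-rich core that PU.1 and other ETS factors bind, on both strands (CTTCCTC on the other). RefSeq promoter windows on GRCm38.p6, from 250 bases before to 50 after a gene start, were at hand for 19 of the 28 members. The motif was in 6 of these 19 genes (31.6%): C1qc, Cd53, Ctss, Fcgr3, Laptm5 and Mrc1. Among all 27025 genes with such a window, the share was 15.4%. For 4 genes with a match near the start, and for Lyz2, which had the highest level and no match, the 100 bases before and 30 after the start are given 5′ to 3′ on the gene's strand, with the motif in capitals. They lie at chr3:95526686-95526815 (plus strand, Ctss), chr1:171059374-171059503 (minus, Fcgr3), chr3:106790120-106790249 (minus, Cd53), chr4:130913216-130913345 (plus, Laptm5) and chr10:117282243-117282372 (minus, Lyz2).
Ctss: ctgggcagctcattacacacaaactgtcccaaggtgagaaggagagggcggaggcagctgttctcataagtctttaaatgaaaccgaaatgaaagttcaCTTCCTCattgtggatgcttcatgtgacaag
Fcgr3: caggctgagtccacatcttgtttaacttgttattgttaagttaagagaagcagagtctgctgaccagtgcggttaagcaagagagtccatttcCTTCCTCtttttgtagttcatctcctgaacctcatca
Cd53: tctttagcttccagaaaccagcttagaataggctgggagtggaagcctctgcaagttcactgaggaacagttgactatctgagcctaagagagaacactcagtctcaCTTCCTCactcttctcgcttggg
Laptm5: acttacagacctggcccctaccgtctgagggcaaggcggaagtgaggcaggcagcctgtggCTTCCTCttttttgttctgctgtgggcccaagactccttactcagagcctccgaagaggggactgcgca
Lyz2: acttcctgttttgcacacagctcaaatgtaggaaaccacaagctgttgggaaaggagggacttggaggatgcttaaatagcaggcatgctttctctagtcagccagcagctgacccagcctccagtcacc
In each of the first 4 windows the match reads CTTCCTC on the gene's strand. Its first base is at -39 from the start in Laptm5, -7 in Fcgr3, -1 in Ctss and 8 in Cd53. A match describes these letters only and shows no binding.

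The 3 chains of complement C1q, which tags dying cells and immune complexes for uptake, are encoded side by side at chr4:136880129-136898803 (GRCm38). C1qa was at 13.78 FPKM in WT, 21.94 in Dyrk2-KO, 20.60 with siNeg and 24.81 with siDyrk2. C1qb was at 20.97, 30.38, 24.84 and 30.22 FPKM in the same order. C1qc was at 10.22, 16.22, 14.39 and 18.28 FPKM. All 3 chains were lowest in WT, and C1qa and C1qc were highest with siDyrk2 and not in the knockout. Their knockout ratios were 1.59 (1.38 to 1.83), 1.45 (1.29 to 1.62) and 1.59 (1.41 to 1.79) for C1qa, C1qb and C1qc. With siDyrk2 against siNeg they were 1.2 (1.06 to 1.37), 1.22 (1.09 to 1.36) and 1.27 (1.14 to 1.42), and with siNeg against WT 1.49 (1.29 to 1.73), 1.18 (1.05 to 1.34) and 1.41 (1.24 to 1.6). The C1q median log2 ratio was 0.27 between both siRNA libraries and 0.46 between both controls.

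Tyrobp (DAP12) and Fcer1g (the common Fc receptor gamma chain) are short membrane adaptors that carry signals from receptors without a signalling tail of their own. Tyrobp was at 16.35 FPKM in WT, 30.16 in Dyrk2-KO, 22.51 with siNeg and 26.53 with siDyrk2. Fcer1g was at 9.28, 18.31, 15.18 and 19.72 FPKM in the same order. WT was lowest for both, and the other 3 libraries lay closer together for Fcer1g. The knockout ratios were 1.84 (1.58 to 2.16) for Tyrobp and 1.97 (1.65 to 2.36) for Fcer1g, and those of siNeg to WT 1.38 (1.16 to 1.63) and 1.64 (1.35 to 1.98).

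Fcgr3, an activating receptor for IgG, was at 4.69 FPKM in WT, 10.06 in Dyrk2-KO, 5.54 with siNeg and 7.19 with siDyrk2. Its knockout ratio of 2.14 (1.8 to 2.56) was the third highest, and between both controls it was 1.18 (0.961 to 1.45). Of its transcripts' 50-base words 9.58% also occur in Fcgr2b, the inhibitory receptor, which had at most 0.16 FPKM. Cd84, a SLAM family receptor, was at 1.59, 2.92, 1.84 and 2.67 FPKM in WT, Dyrk2-KO, siNeg and siDyrk2, again with both Dyrk2-lowered libraries above both controls. The high-affinity receptor gene Fcgr1 reached 0.79 FPKM at most, the lectin Clec4n 0.42 and the lipid receptor Trem2 0.07.

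Among scavenger and pattern-recognition receptors, Cd68, a glycoprotein of late endosomes, was at 20.95 FPKM in WT, 36.52 in Dyrk2-KO, 27.24 with siNeg and 30.49 with siDyrk2. The mannose receptor gene Mrc1 was at 2.67, 4.99, 3.12 and 3.26 FPKM in the same order, so that the knockout stood apart from the other 3 libraries. Its knockout ratio was 1.87 (1.65 to 2.12) and its siDyrk2 ratio 1.04 (0.911 to 1.2), which turned to -0.01 (log2) on TPM. The scavenger receptor gene Msr1 was near the limit, at 0.85, 1.22, 1 and 1.47 FPKM. Cd14, a co-receptor for bacterial lipopolysaccharide that fibroblasts can also make, was nearly level, at 2.80, 3.11, 3.32 and 3.04 FPKM. All 3 of its counting intervals included 1, with ratios of 1.11 (0.854 to 1.45), 0.916 (0.699 to 1.2) and 1.19 (0.909 to 1.55).

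Lyz2, which encodes the lysozyme of macrophages and neutrophils, was the most abundant member per length, above 98.4% of the genes tested in WT. It lies at chr10:117277331-117282321 and was at 152.06 FPKM in WT, 328.57 in Dyrk2-KO, 154.19 with siNeg and 196.09 with siDyrk2. WT and siNeg were alike and the knockout stood apart. The knockout ratio was 2.16 (2.09 to 2.24), the siDyrk2 ratio 1.27 (1.22 to 1.32) and the ratio of siNeg to WT 1.01 (0.972 to 1.06). In that last comparison Lyz2 differed from Fcer1g, Csf1r, C1qa and Ncf1, whose intervals began at 1.35, 1.36, 1.29 and 1.34. Lyz2 was not alone in this: the intervals of Cybb, Cd53, Cd84, Fcgr3, Cd14, Cd52, Msr1 and Aif1 also included 1 there. The level of Lyz2 over that of Tyrobp was 9.3 in WT, 10.9 in Dyrk2-KO, 6.85 with siNeg and 7.39 with siDyrk2, lower in both siRNA libraries. Of its 50-base words 15.4% are shared with the paralog Lyz1, which was at 0 to 0.17 FPKM.

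Ctss, the lysosomal protease cathepsin S, had the largest knockout ratio, 2.21 (2.01 to 2.44), from 19.76 FPKM in WT and 43.73 in Dyrk2-KO. In the siRNA libraries it had 25.36 FPKM (siNeg) and 33.95 (siDyrk2), a ratio of 1.34 (1.21 to 1.48). Its knockout interval and that of Lyz2 lay wholly above those of the 3 C1q chains. The pore-forming protein gene Mpeg1 was at 16.25, 30.97, 20.56 and 28.64 FPKM in WT, Dyrk2-KO, siNeg and siDyrk2. Cybb and Ncf1 encode subunits of the phagocyte NADPH oxidase, one in the membrane and one in the cytosol. Cybb was at 2.09, 3.88, 2.11 and 2.59 FPKM and Ncf1 at 1.54, 2.85, 2.58 and 2.47 FPKM in the same order. Both were highest in the knockout, with ratios of 1.86 (1.61 to 2.16) and 1.85 (1.49 to 2.3), but siNeg was level with WT for Cybb, at 1.01 (0.85 to 1.2), and above it for Ncf1, at 1.68 (1.34 to 2.11).

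**Figure D3:**
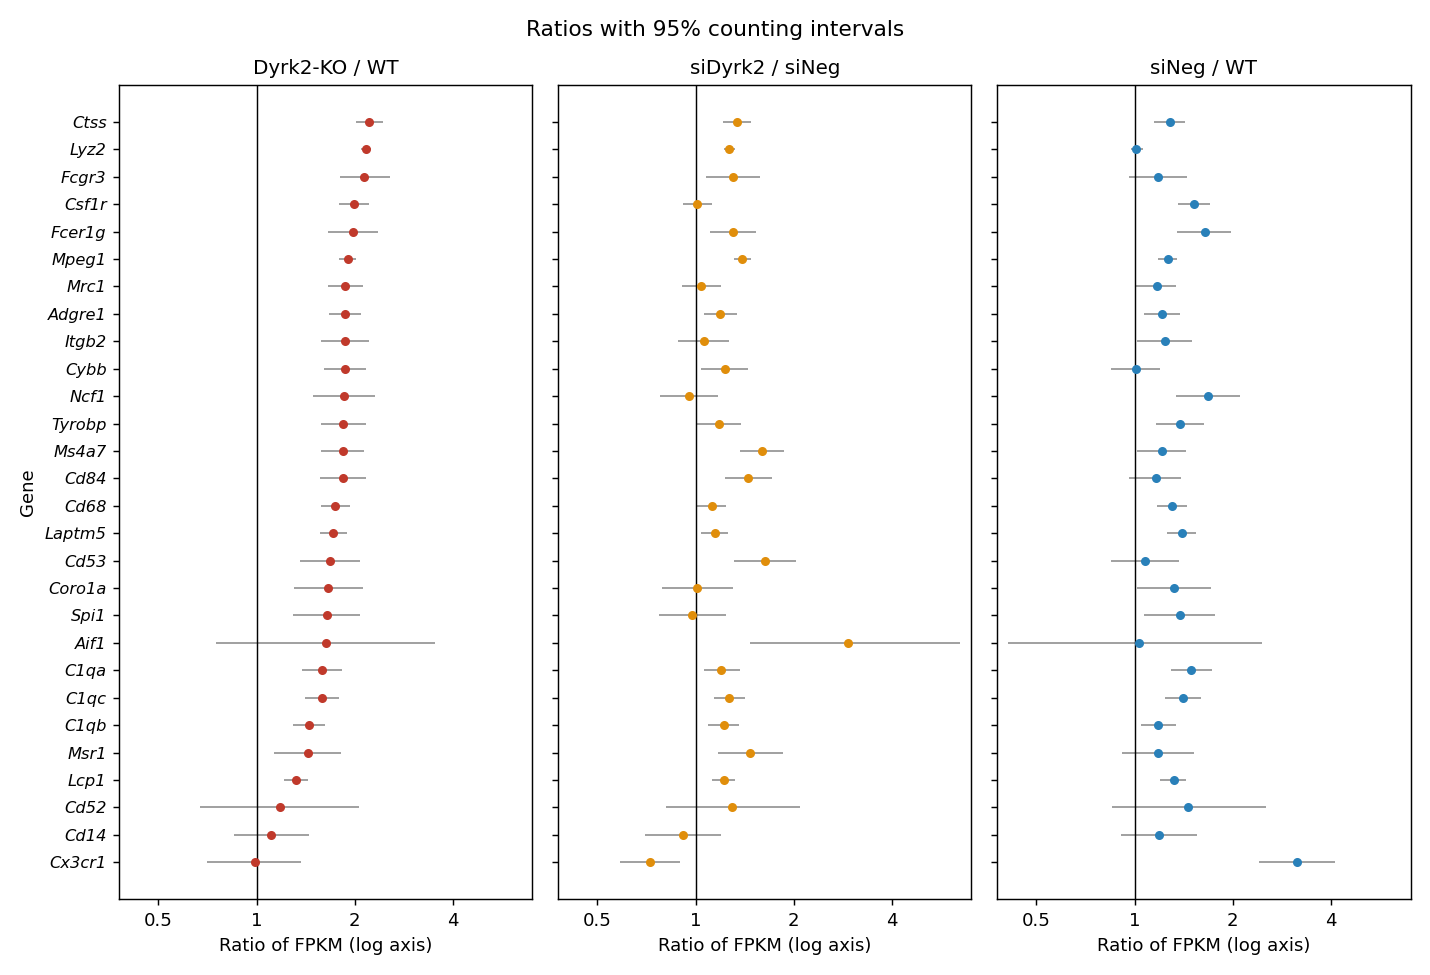
Ratio of FPKM (log axis) for the 28 genes in the 3 comparisons, with bars for 95% counting intervals and genes ordered by their knockout ratio. In the left panel 24 intervals lie above 1, with Ctss at 2.21 on top, and in the other panels 19 each.

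Among adhesion and migration genes, Adgre1, the adhesion receptor that carries the classic F4/80 epitope of mouse macrophages, was at 6.32 FPKM in WT, 11.82 in Dyrk2-KO, 7.67 with siNeg and 9.13 with siDyrk2. Itgb2, the leukocyte integrin beta chain, was at 2.97, 5.53, 3.67 and 3.89 FPKM in the same order. The knockout was highest for both; it stood apart from the other 3 for Itgb2, while Adgre1 was graded, with siDyrk2 over siNeg at 1.19 (1.06 to 1.34). Itgam, which pairs with Itgb2, reached 0.50 FPKM at most, and 68.7% of its exon bases are shared with Gm49368 on the same strand, so its value is uncertain. Ms4a7, a tetraspan membrane protein of macrophages, was at 2.56 FPKM in WT and 3.11 with siNeg against 4.71 in Dyrk2-KO and 4.97 with siDyrk2, which divided the libraries by Dyrk2 as for Cd53.

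Cx3cr1, the receptor for fractalkine, had a pattern of its own. It was at 0.73 FPKM in WT and 0.72 in Dyrk2-KO against 2.29 with siNeg and 1.66 with siDyrk2, with both siRNA libraries above both others. Only Cd52 among the other 27 members shared that order, which 24.4% of all genes had. The opposite order was seen in 0 members and 20.9% of all genes. The ratio of siNeg to WT was 3.14 (2.4 to 4.1) and that of siDyrk2 to siNeg 0.725 (0.588 to 0.898). Cx3cr1 passed 1 FPKM through the siRNA libraries alone, and Cd52 did not pass it in WT, so a high siNeg value over WT was built into how Cx3cr1 was kept. Aif1, the calcium-binding protein IBA1, passed 1 FPKM with siDyrk2 alone, at 1.06 against 0.35 in WT, 0.57 in Dyrk2-KO and 0.36 with siNeg, on 11 to 35 fragments. Since it entered the list through that library, its siDyrk2 ratio of 2.94 (1.47 to 6.46) had to be high.

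Of the 28 members 24 were above 1 FPKM in every library, and these had medians of 0.69, 0.24 and 0.29 in the knockout, siDyrk2 and siNeg-against-WT comparisons. In these comparisons 24, 21 and 24 of them were higher. Among all genes kept by 1 FPKM in any library, 43.7%, 54.3% and 48.3% were higher. The other 4, Cd52, Msr1, Cx3cr1 and Aif1, passed in some libraries only. The 11 members under 1 FPKM everywhere were Ptprc, Fcgr1, Itgam, Clec4n, Pf4, Fcgr2b, Trem2, Cd86, Timd4, Ccr2 and Cd163. The chemokine Pf4 reached 0.35 FPKM and the co-stimulator Cd86 0.05. The haemoglobin scavenger Cd163, the monocyte chemokine receptor Ccr2 and the phosphatidylserine receptor Timd4 had at most 2 fragments in any library, under the floor of 3 fragments that a count of 0 allows.

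A second list of 86 macrophage and myeloid genes, none of them on the first, gave 55 measured genes. Of these 49 were higher and 6 lower in Dyrk2-KO (median 0.48), 46 and 9 with siDyrk2 (0.18), and 39 and 15 with siNeg against WT (0.20). Shares of all genes in these comparisons were 43.7% higher and 55.6% lower, 54.3% and 45%, and 48.3% and 51%. Genes of this list named here, by their high mean level, did not share an order of libraries. Gpnmb, a lysosomal glycoprotein, was at 28.60 FPKM in WT, 55.82 in Dyrk2-KO, 27.72 with siNeg and 33.42 with siDyrk2, the pattern of Lyz2. Sirpa, the inhibitory receptor for CD47, was at 25.98, 37.02, 26.36 and 29.39 FPKM. Arhgdib, a regulator of small GTPases, was lowest in the knockout, at 41.30 FPKM against 51.32 to 67.15 elsewhere.

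Lysosome genes that most cells express differed less than the members. All 28 were measured, with 24 higher in Dyrk2-KO (median 0.15), 24 with siDyrk2 (0.12) and 16 with siNeg against WT (0.03). Beside these counts, 43.7%, 54.3% and 48.3% of all genes were higher. Ctsd was at 318.33, 417.31, 347.55 and 375.89 FPKM in WT, Dyrk2-KO, siNeg and siDyrk2, and Psap at 482.49, 561.01, 489.90 and 501.32 FPKM. Fibroblast markers had medians of 0.10, -0.15 and -0.01 in the 3 comparisons, with 9, 6 and 5 of 12 higher, beside the same shares of all genes. Single markers moved more: in the knockout comparison their log2 ratios ran from -0.85 (Thy1) to 0.98 (Dcn).

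**Figure D4:**
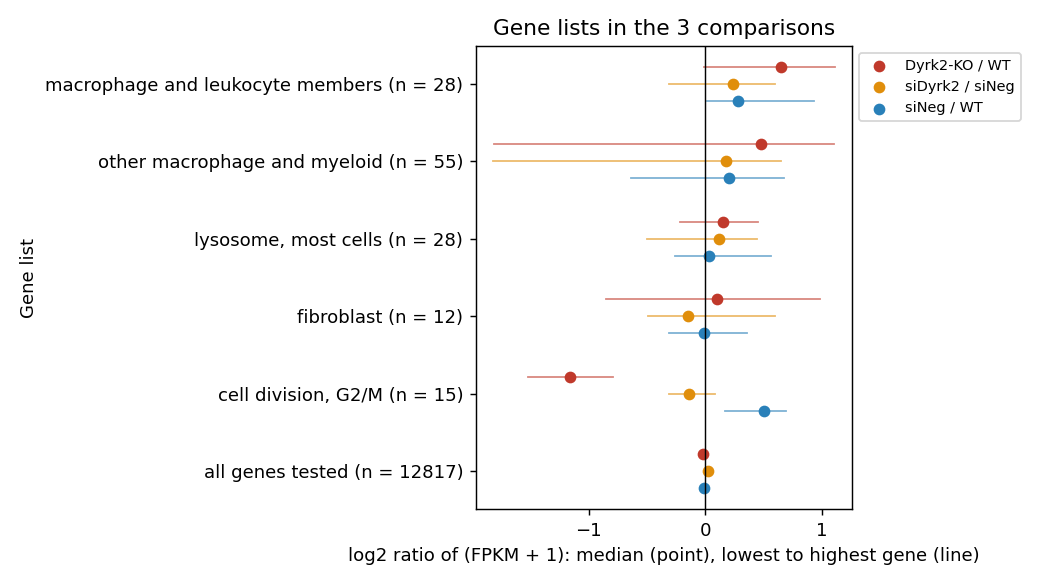
Median log2 ratio of (FPKM + 1) of 5 gene lists and of all genes in the 3 comparisons (points), with lines from the lowest to the highest measured gene of each list. The members' medians of 0.65, 0.24 and 0.28 lie right of those of the lysosome and fibroblast lists, and the G2/M list lies at -1.16 in the knockout comparison.

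Of the 14 growth factors and attractants that stromal cells send to macrophages, 11 were measured. Their medians were 0.07 in Dyrk2-KO, 0.29 with siDyrk2 and 0.09 with siNeg against WT. In Dyrk2-KO 6 were higher and 4 lower (43.7% and 55.6% of all genes). With siDyrk2 6 were higher and 5 lower (54.3% and 45%), and with siNeg against WT 7 and 4 (48.3% and 51%). Csf1 was at 47.56 FPKM in WT, 50.05 in Dyrk2-KO, 64.86 with siNeg and 60.47 with siDyrk2, higher in both siRNA libraries. Il34, the other CSF1R ligand, and the monocyte attractant Ccl7 were outside the naming rule and are given after their values were seen. Il34 was low, at 0.92, 1.68, 0.74 and 2.23 FPKM in the same order, and Ccl7 was at 16.91, 32.08, 18 and 35.18 FPKM. Both were higher in the libraries with lowered Dyrk2, an order that 16.3% of all genes had. Il34 passed 1 FPKM through those libraries alone, so its higher values there were built into how it was kept. The ratios for the knockout and siDyrk2 were 1.83 (1.24 to 2.74) and 3.01 (1.97 to 4.75) for Il34, and 1.9 (1.65 to 2.18) and 1.95 (1.7 to 2.26) for Ccl7. Cxcl12, a chemokine that retains blood cells, was at 51.92, 38.66, 55.78 and 43.84 FPKM, lower in both libraries with lowered Dyrk2. Kitl, also outside the naming rule, had that order too, at 16.04, 10.55, 13.76 and 5.52 FPKM. Its ratios were 0.658 (0.615 to 0.704) for the knockout and 0.401 (0.367 to 0.439) for siDyrk2. Of all genes 16.6% had this order. The monocyte attractant Ccl2 was at 28.76 FPKM in WT, 58.85 in Dyrk2-KO, 11.57 with siNeg and 28.40 with siDyrk2, and the cytokine Mif was highest with siDyrk2, at 110.15 against 66.28 to 72.29 FPKM.

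Markers of other blood cells were at or near 0. Of 10 T cell, 7 B cell, 7 NK cell, 8 mast cell and 9 erythroid genes 0 reached 1 FPKM in any library, and their summed levels were at most 1.10, 0.84, 0.11, 0.60 and 0.05 FPKM. Among 12 neutrophil genes S100a9 alone did, at 1.34 FPKM with siDyrk2 on 15 fragments, against 3 in Dyrk2-KO and 0 in WT and siNeg. Of 6 megakaryocyte genes Itga2b reached 1.32 FPKM. The 7 genes of MHC class II presentation had summed levels of 2.61, 2.72, 1.9 and 2.59 FPKM in WT, Dyrk2-KO, siNeg and siDyrk2. Of 7 microglia genes 3 passed 1 FPKM, and P2ry12, a purine receptor of microglia, reached 0.29. Of 10 osteoclast genes 6 were measured, led by Ctsk at 106.53 to 131.53 FPKM, which fibroblasts make too. Endothelial and epithelial lists had 1 measured gene each, Tek at 2.55 to 4.63 FPKM and Krt19 at 1.58 to 3.59 FPKM.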

How the data were processed

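Total RNA of 4 SAG-treated primary MEF cultures was made into stranded polyA-selected libraries, per the labels' protocols. Trimming and alignment tools listed in the submitters' processing notes were cutadapt 1.9.1 and HISAT2 2.0.1, with the build GRCm38. For the counting program, and whether it used strand, the status is: not given in the sources used here. What the authors deposited is FPKM with 2 decimals beside an exonic length per gene, per the file headers. Of 55573 identifiers 55394 matched GENCODE M21, and the deposited length of each of the 39 members equalled its union of exons there.

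FPKM moves in steps of 1 fragment. The depth that made genes of up to 200 bases whole (100% of 323 to 384 genes with at most 60 fragments, within the rounding) gave fragments per gene, which entered exact 95% Clopper-Pearson intervals of ratios and Wilson intervals of shares; these cover counting error only. The recovery was tested on simulated data. Log2 ratios used FPKM + 1, which understates differences of low genes. Genes with at least 1 FPKM in any library were kept. No p-value was computed, since each group held 1 library.

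Every kept member was to be named, and of other lists up to 4 genes by mean level; members, lists and comparisons were chosen with earlier results of these data known. Exons of other genes on the opposite strand overlap 15.1% of Csf1r, 14.5% of Cd52 and 11.1% of Ncf1. Protein sequences were not used here, and some genes that the naming rule selects are not reported here. Alternatives were other pseudocounts, filters, scalings, member sets and the other control library. Python 3.11.15, pandas 2.3.3 and scipy 1.17.1 were used.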

Additional observations from a re-analysis of the deposited data

How the results depend on the processing

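With 1 library per group leaving out a replicate was not possible. No paired analysis was possible because each group held 1 library and the labels give no shared replicate numbers. The knockout median of 0.65 became 0.82 with a pseudocount of 0.1, 0.39 with 5, 0.79 with a filter of 5 FPKM and 0.31 against siNeg as control, the largest shift. The siDyrk2 median of 0.24 became 0.52 against WT, and the median of siNeg against WT, 0.28, became 0.15 with a pseudocount of 5. The knockout count of 2 members at least 2-fold higher (Lyz2 and Ctss) was 1 with a pseudocount of 5, without Lyz2 or against siNeg, and 0 without the 6 members also known outside blood cells. The count of 0 became 1 in the siDyrk2 comparison with a pseudocount of 0.1, with TPM or against WT, and 1 for siNeg against WT with a pseudocount of 0.1 or TPM. A filter of 5 FPKM left 16 members, and all 16 were higher in each of the 3 comparisons. The ratio of summed FPKM was 1.95 in the knockout, and 1.77 without Lyz2, 1.74 without the 6 members and 1.64 against siNeg. It was 1.24 for siDyrk2, with 1.18 on TPM and 1.47 against WT. It was 1.18 for siNeg against WT, with 1.33 without Lyz2 and 1.34 without the 6 members. Trimmed-mean scaling gave 28 of 28 members higher in the knockout and 22 with siDyrk2, where Csf1r and Coro1a turned to -0.01. The count of 23 members with both Dyrk2-lowered libraries above both controls was 21 with trimmed-mean or median-of-ratios scaling and 19 with TPM. For the counts under other settings in this section the shares of all genes are not given here. Rescaling or another filter can move those shares too, so these counts do not show how members compare with all genes. Low levels limit Aif1, Cd52 and the members under 1 FPKM.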

Other observations

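Within the second macrophage and myeloid list, Clec4d, a C-type lectin, was the only one of the 55 measured genes at least 2-fold higher in any of the 3 comparisons, and it was singled out after its values had been seen. It was at 8.46 FPKM in Dyrk2-KO against 3.42 in WT, 4.19 with siNeg and 5.97 with siDyrk2, with a log2 ratio of 1.10 between knockout and WT. By the same rule 0.57%, 0.749% and 0.367% of all genes were higher in the knockout, siDyrk2 and siNeg-against-WT comparisons.

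The genes that follow were also picked after their values had been seen. Of the 12 neutrophil genes, S100a9, S100a8, Camp and Ngp had 15, 10, 6 and 6 fragments with siDyrk2, against 3, 3, 0 and 1 in Dyrk2-KO and 0 in WT and siNeg. The other neutrophil genes had at most 4 fragments in any library and did not share that order: Elane had 4 with siNeg and 4 with siDyrk2, Mpo had 4 and 1, and Ctsg had 3 and 0. S100a9 passed 1 FPKM through siDyrk2 alone. Tlr2, a receptor for bacterial lipoproteins, was at 2.11 FPKM in WT and 4.82 in Dyrk2-KO against 1.35 with siNeg and 1.21 with siDyrk2. Mmp9 was at 2.50 and 3.94 FPKM in the first pair and at 0.48 and 0.86 in the siRNA libraries.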
